A study of Mus musculus with 10 samples.

Results

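The transporters described here are 10 liver proteins that move bile acids, other organic anions and sterols between blood, hepatocyte and bile. They are the uptake carriers Slc10a1, Slco1b2, Slco1a1 and Slco1a4, the canalicular pumps Abcb11 and Abcc2, the basolateral pumps Abcc3 and Abcc4, and the sterol half-transporters Abcg5 and Abcg8. They were chosen by name, and they and the gene lists counted below were chosen with earlier results of these data known. Each was measured by the 1 transcript cluster (the set of array probes that reads a gene's RNA) listed for that symbol alone. This gave 10 of the 22180 genes with a level in the deposited table. All values are RMA levels on the log2 scale, so a difference of 1 is a doubling of signal. Levels of different genes come from different probes and are not set against each other.

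Bile acids are made from cholesterol in hepatocytes, pumped into bile, reabsorbed in the intestine and taken up again from portal blood. Uptake across the sinusoidal membrane runs through the sodium-dependent carrier NTCP, the product of Slc10a1, and through the sodium-independent OATP carriers of the Slco1 genes. The bile salt export pump, encoded by Abcb11, and Abcc2 (MRP2) export into the canaliculus, while Abcc3 (MRP3) and Abcc4 (MRP4) return bile acids and conjugates to blood. ABCG5 and ABCG8 work only as a pair, which exports cholesterol and plant sterols into bile.

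Transcript levels were measured in livers of fasted male mice collected about 2 weeks after an adeno-associated virus with the TBG promoter, which drives its cargo in hepatocytes. The vector carried FST288, an isoform of follistatin that binds and blocks activins, or GFP as the control. The groups were LTKO mice with FST288 (n = 2 arrays), LTKO mice with GFP (n = 2) and, on a wild-type background fed a high-fat diet, HFD FST288 (n = 3) and HFD GFP (n = 3). LTKO, which the labels do not spell out, is known as a mouse whose liver lacks Irs1, Irs2 and Foxo1, the insulin receptor substrates and a transcription factor that insulin signalling restrains. The diet of the LTKO mice, and the strain and age of all mice, are not given in the sources used here, so genotype and diet cannot be told apart in a comparison of LTKO with HFD livers. The samples are whole liver, in which fewer cells of a type and less RNA per cell cannot be told apart.

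The labels were checked on the arrays before the transporters. Fst, the vector's gene, averaged 6.79 ± 0.08 in LTKO FST288 livers and 5.35 ± 0.06 in LTKO GFP livers (SD, n = 2 each), and 6.35 ± 0.52 in HFD FST288 livers and 5.27 ± 0.06 in HFD GFP livers (SD, n = 3 each). Irs1 averaged 3.18 and 3.15 in LTKO FST288 and LTKO GFP livers, against 4.81 and 4.91 in HFD FST288 and HFD GFP livers. In the same order, Irs2 averaged 2.82 and 2.94 against 4.22 and 4.15, and Foxo1 averaged 4.75 and 5.04 against 6.85 and 6.72. The vector's gene and the targeted genes thus matched the labels, although where the probes lie relative to the deleted parts was not checked. Hepatocyte markers (7 of 7 measured, Alb among them) had a summed level of 14.65 to 14.72 on LTKO FST288, 14.68 to 14.78 on LTKO GFP, 14.79 to 14.83 on HFD FST288 and 14.87 to 14.94 on HFD GFP arrays. Of these 7, 3 were lower and 0 higher in LTKO than in HFD livers with FST288, and 3 were lower and 1 higher with GFP, against 5.29% and 6.4% of all genes lower. The number lower was 1 with FST288 without LTKO FST288 replicate 1 or without HFD FST288 arrays 2 and 3, and 1 with GFP without LTKO GFP replicate 1. Markers of pancreatic acinar cells, an exocrine tissue that can be cut along with liver, had a summed level of 5.83, 11.33 and 10.18 on HFD FST288 arrays 1, 2 and 3, against 5.66 to 5.92 on HFD GFP arrays and 5.64 to 5.78 on the LTKO arrays of both vectors (7 of 10 listed markers measured). Macrophage markers, Kupffer cells included (6 of 6 measured), had a summed level of 8.79 and 9.92 on LTKO FST288 arrays 1 and 2, against 8.11 to 8.72 on all other arrays, and 4 of 6 were called higher in LTKO FST288 than in HFD FST288 livers, against 5.05% of all genes. That count was 1 without LTKO FST288 replicate 2, 2 without HFD FST288 replicate 1 or 3, and 0 without HFD FST288 arrays 2 and 3. The part of these markers in the transporter results was not tested beyond the fits named with each result. The members' results that rest on HFD FST288 arrays 2 and 3 are given with and without them, and those of listed genes where a call changed.

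Most of the transporters changed between LTKO and HFD livers, with Abcc3 and the uptake carrier Slco1a4 higher and the other uptake carriers and the bile salt export pump lower in LTKO livers. With GFP, Abcc3, Slco1a4 and Abcg8 were higher and Abcb11, Slc10a1, Slco1a1 and Slco1b2 were lower in LTKO livers, so that 7 of 10 were called, against 13.1% of all genes. With FST288, Abcc3 and Slco1a4 were higher and Abcb11, Slc10a1, Slco1a1 and Slco1b2 were lower in LTKO livers, so that 6 of 10 were called, against 10.3% of all genes. These comparisons share no array but share the fit, which pooled the spread of all 10 arrays, so they are not independent. Genotype and diet cannot be told apart in either. By mean level, Abcc4 was brighter than 53.9% of genes and the other members were brighter than 90.8% to 99.7%. A fit without dim genes kept 12137 genes, of which 3143 were called with GFP and 2599 with FST288. The shares of all genes, here and below, include the dim ones. A call here is an adjusted p under 0.05 in limma, adjusted by Benjamini-Hochberg over all 22180 genes, and the same rule holds throughout.

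**Figure D1:**
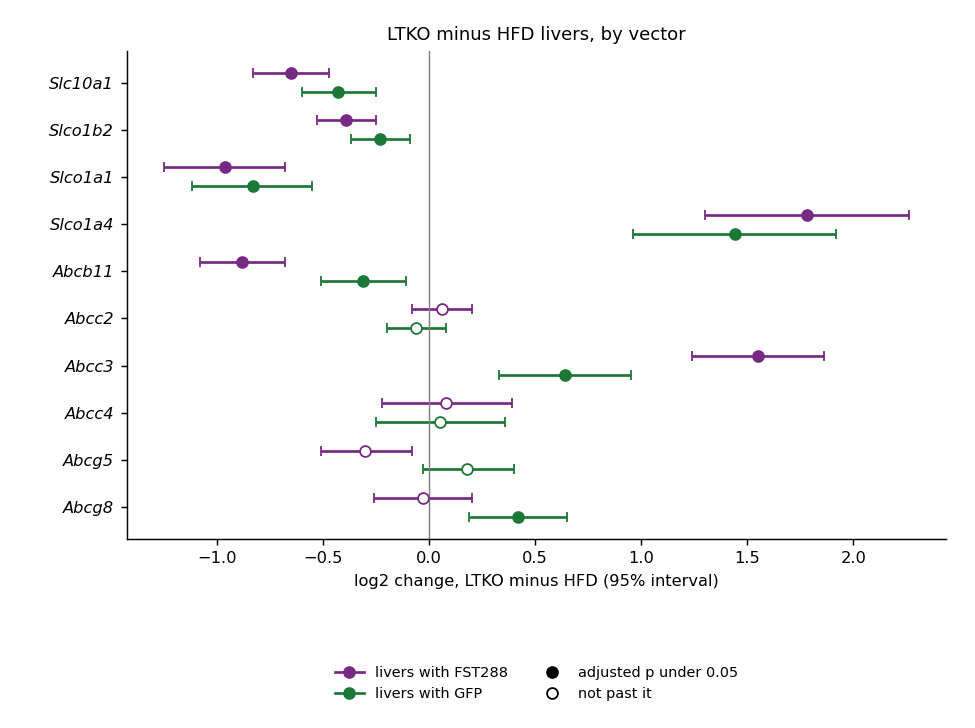
Log2 change of each transporter between LTKO and HFD livers (LTKO minus HFD), with FST288 in purple and with GFP in green; points are the fitted changes, bars their 95% intervals, and filled points have an adjusted p under 0.05. Slco1a4 and Abcc3 lie to the right of 0 and Slco1a1, Slc10a1, Abcb11 and Slco1b2 to the left of it with both vectors, while Abcc2 and Abcc4 lie within 0.08 of it.

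Few of the transporters were called with the vector. With 2 or 3 arrays per group, a missing call does not show that a gene was unchanged. At an unadjusted p under 0.05 (limma) were 5 of 10 members in HFD livers and 2 of 10 in LTKO livers, against 2672 and 2213 of 22180 genes. In HFD livers FST288 raised Abcb11 and lowered Abcc3, 2 of 10 members, against 0.996% of all genes. In LTKO livers it lowered Abcg8, 1 of 10 members, against 0.167% of all genes called in either direction and 0.0676% called lower. The 37 genes behind that share became 237 without LTKO FST288 replicate 1, and 21 without HFD FST288 replicate 3 or HFD GFP replicate 2. The median change of the 10 members was -0.06 in LTKO livers and -0.05 in HFD livers, beside -0.02 and 0 over all genes. Individual arrays of the groups did not overlap for 3 members in LTKO livers, against 37.8% of all genes, and for 6 members in HFD livers, against 18.4%. For LTKO against HFD livers they did not overlap for 7 members with FST288, against 37.4% of all genes, and for 9 with GFP, against 40.3%.

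**Figure D2:**
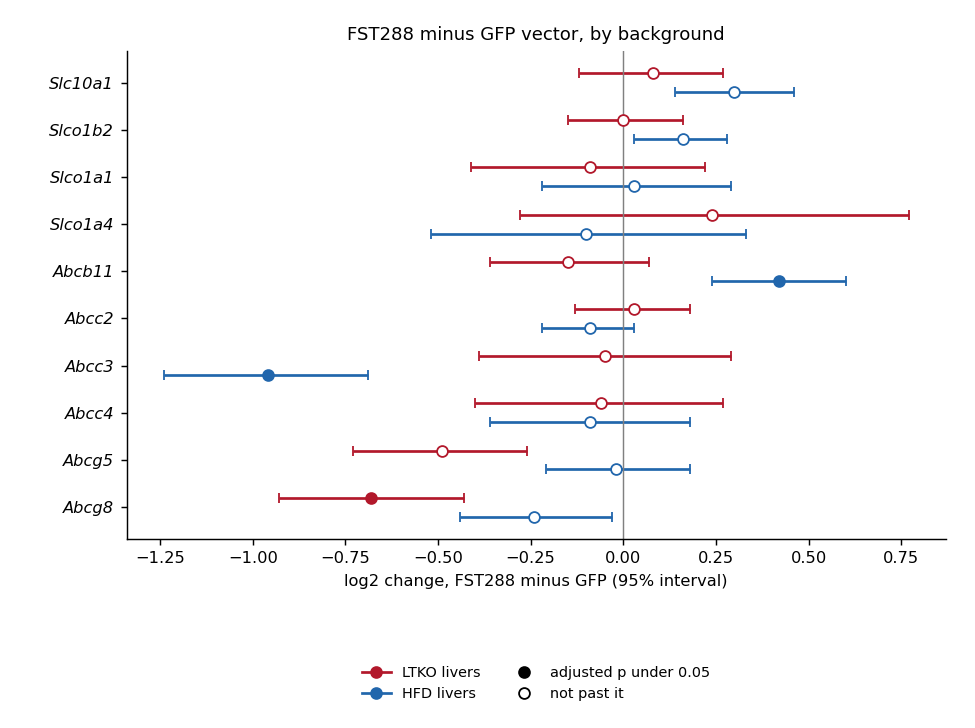
Log2 change of each transporter with the FST288 vector (FST288 minus GFP), in LTKO livers in red and in HFD livers in blue; points are the fitted changes, bars their 95% intervals, and filled points have an adjusted p under 0.05. Abcg8 in LTKO livers and Abcc3 and Abcb11 in HFD livers are the filled points.

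**Figure D3:**
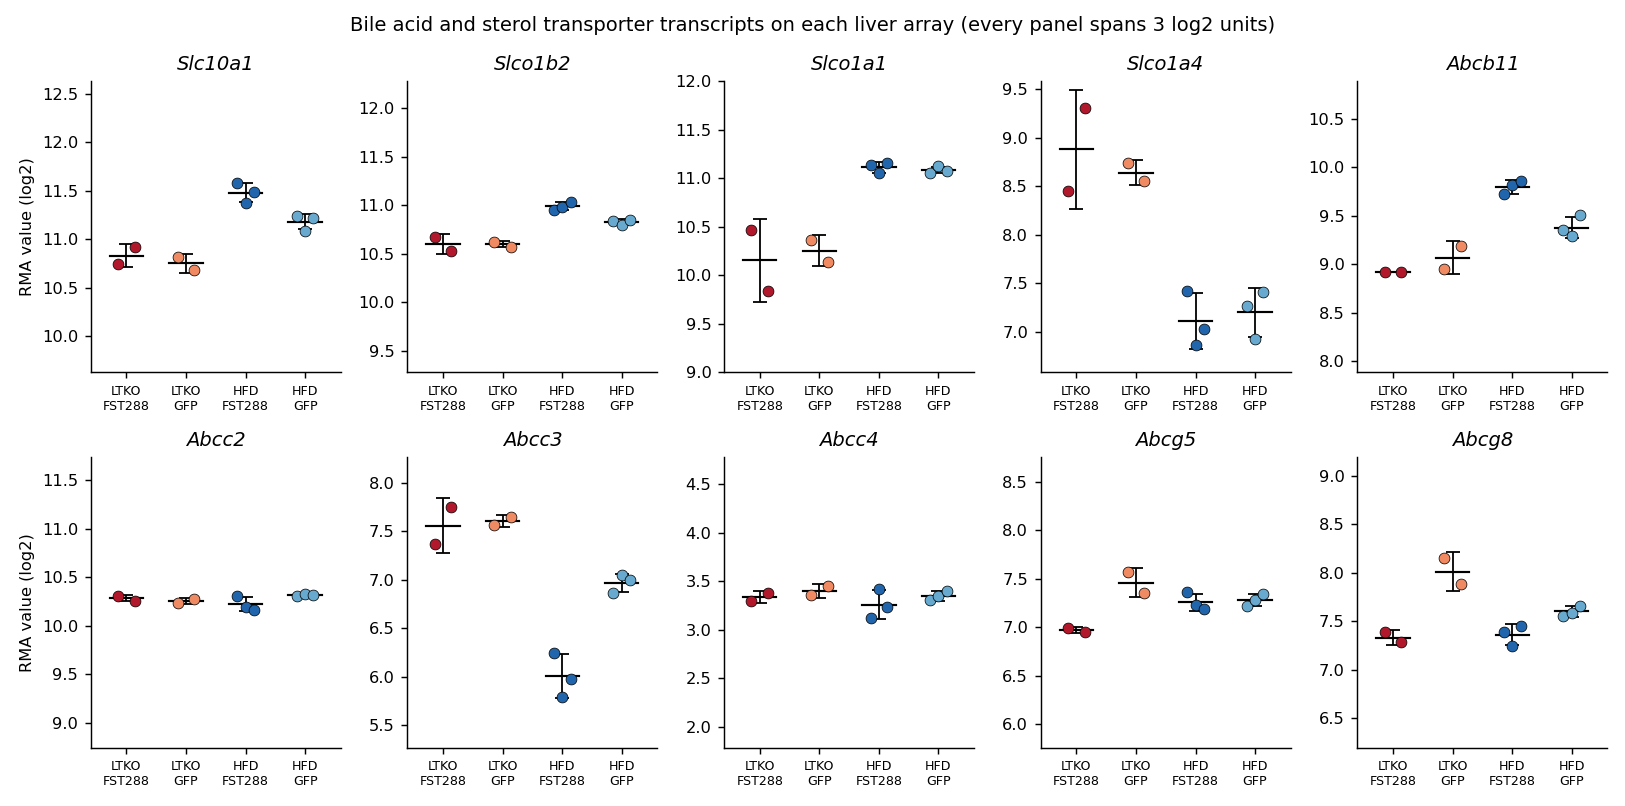
Log2 level of each transporter on every array, by group in the order LTKO FST288, LTKO GFP, HFD FST288 and HFD GFP; points are arrays, and the horizontal marks and bars are the group mean and SD. Every panel spans 3 log2 units, and Slco1a4, Abcc3, Slco1a1 and Abcb11 show the widest separation of group means.

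Slc10a1 encodes NTCP, the main sodium-dependent carrier that takes conjugated bile acids from portal blood. Its level was 10.74 and 10.92 in LTKO FST288 livers, 10.82 and 10.68 in LTKO GFP livers, 11.58, 11.37 and 11.49 in HFD FST288 livers, and 11.24, 11.08 and 11.22 in HFD GFP livers. All 4 LTKO arrays were below all 6 HFD arrays, and the HFD FST288 arrays were above the HFD GFP arrays. Against HFD livers it fell in LTKO livers by a change of -0.65 ± 0.08 with FST288 (SE; adjusted p = 0.000137, limma; 1.57-fold lower) and of -0.43 ± 0.08 with GFP (adjusted p = 0.00333, limma; 1.34-fold lower). These calls held in 22 of 22 alternatives each. With FST288 against GFP the change was 0.08 ± 0.09 in LTKO livers (adjusted p = 0.840, limma) and 0.30 ± 0.07 in HFD livers (95% interval 0.14 to 0.46; adjusted p = 0.0807, limma), neither past the threshold. The HFD change passed it without LTKO FST288 replicate 1 (adjusted p = 0.0470) or 2 (adjusted p = 0.0476), and when the 6 HFD arrays were fitted alone (adjusted p = 0.0252). Without HFD FST288 arrays 2 and 3, which carry the acinar markers, it was 0.40 (adjusted p = 0.463).

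Slco1b2 encodes OATP1B2, a hepatocyte carrier of bile acids, bilirubin and many drugs. Its promoter window is shown because it held 1 of the rare inverted repeats described with Abcb11. In RefSeq (assembly GRCm38.p6) the window runs over chr6:141629268-141629567 on the plus strand, 5′ to 3′, with the repeat in capitals. It spans 250 bases before to 50 bases after a listed start of the gene. That start lies downstream of the outermost base annotated for the gene, and positions are counted from it.
Slco1b2: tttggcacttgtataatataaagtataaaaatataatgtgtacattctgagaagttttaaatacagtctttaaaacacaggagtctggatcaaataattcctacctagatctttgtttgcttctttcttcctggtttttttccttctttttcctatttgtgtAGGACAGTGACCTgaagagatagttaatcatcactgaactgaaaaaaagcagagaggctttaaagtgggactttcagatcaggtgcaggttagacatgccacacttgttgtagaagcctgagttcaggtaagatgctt
The capitals mark AGGACAGTGACCT, which begins 88 bases before the start and differs from the searched repeat at 1 base. The transcript had a level of 10.67 and 10.53 in LTKO FST288 livers, 10.62 and 10.57 in LTKO GFP livers, 10.95, 10.98 and 11.03 in HFD FST288 livers, and 10.84, 10.80 and 10.85 in HFD GFP livers. The 4 LTKO arrays lay below the 6 HFD arrays by a small margin. Slco1b2 fell in LTKO livers by a change of -0.39 ± 0.06 with FST288 (adjusted p = 0.00131, limma; 1.31-fold lower) and of -0.23 ± 0.06 with GFP (adjusted p = 0.0311, limma; 1.17-fold lower). With FST288, the call was lost only without HFD FST288 arrays 2 and 3 (-0.35, adjusted p = 0.0861), among 22 alternatives. With GFP it held in 10 of 22 and was lost without LTKO GFP replicate 1 or 2, HFD GFP replicate 1, 2 or 3, or HFD FST288 replicate 3, with adjusted p between 0.0506 and 0.146. The vector's own changes were 0.00 in LTKO livers (adjusted p = 0.994) and 0.16 ± 0.06 in HFD livers (adjusted p = 0.266, limma).

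Slco1a1 encodes OATP1A1, a carrier of bile acids and steroid conjugates that is more abundant in livers of male than of female mice. Its level was 10.46 and 9.84 in LTKO FST288 livers, 10.36 and 10.13 in LTKO GFP livers, 11.13, 11.05 and 11.16 in HFD FST288 livers, and 11.05, 11.12 and 11.07 in HFD GFP livers. The 6 HFD arrays lay within a narrow band, and every LTKO array lay below it. Slco1a1 fell in LTKO livers by a change of -0.96 ± 0.13 with FST288 (adjusted p = 0.000266, limma; 1.95-fold lower) and of -0.83 ± 0.13 with GFP (adjusted p = 0.000781, limma; 1.78-fold lower). Both calls held in 22 of 22 alternatives, and the change with FST288 was -0.66 without LTKO FST288 array 2, the array with the high macrophage markers. With the vector it changed by -0.09 in LTKO livers (adjusted p = 0.890) and by 0.03 in HFD livers (adjusted p = 0.948, limma).

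Slco1a4 encodes OATP1A4, a carrier with a similar range of substrates that is more abundant in livers of female mice. Its level was 8.45 and 9.31 in LTKO FST288 livers, 8.74 and 8.55 in LTKO GFP livers, 7.42, 6.86 and 7.03 in HFD FST288 livers, and 7.27, 6.93 and 7.41 in HFD GFP livers. The lowest LTKO array was above the highest HFD array by more than the range of the 6 HFD arrays. Slco1a4 rose in LTKO livers by 1.78 ± 0.22 with FST288 (adjusted p = 0.000118, limma; 3.43-fold) and by 1.44 ± 0.22 with GFP (adjusted p = 0.000639, limma; 2.71-fold). These were the widest changes among the 10 members with each vector. The replicates of LTKO FST288 were far apart, with a mean of 8.88 ± 0.61 (SD, n = 2), and the change with FST288 was 1.35 without array 2 and 2.21 without array 1, called both times. The vector's change was 0.24 ± 0.24 in LTKO livers (adjusted p = 0.809) and -0.10 ± 0.20 in HFD livers (adjusted p = 0.903, limma).

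Slco1a1 and Slco1a4 are neighbours within 1 run of 6 Slco1 genes on chromosome 6, in the order Slco1c1, Slco1b2, Slco1a4, Slco1a1, Slco1a6 and Slco1a5 in the RefSeq annotation. Apart from the members, 0 of the other 3 genes in the row passed the test in either comparison by limma, and 0 had an unadjusted p under 0.05. In LTKO livers with FST288 against HFD livers with FST288, Slco1c1 changed by -0.01 (adjusted p = 0.988), Slco1a6 by 0.01 (adjusted p = 0.985) and Slco1a5 by 0.08 (adjusted p = 0.835, limma). With GFP the changes of Slco1c1, Slco1a6 and Slco1a5 were 0.36, -0.06 and -0.08 (adjusted p of 0.206, 0.852 and 0.790, limma). Slco1c1 lay between 2.11 and 2.83 and Slco1a6 and Slco1a5 between 1.30 and 2.03 on every array, all below the array medians of 3.10 to 3.17 over named genes, so a change in any of the 3 would be hard to see. The Slco1 genes are similar in sequence, and how the array's probes separate them was not tested.

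**Figure D4:**
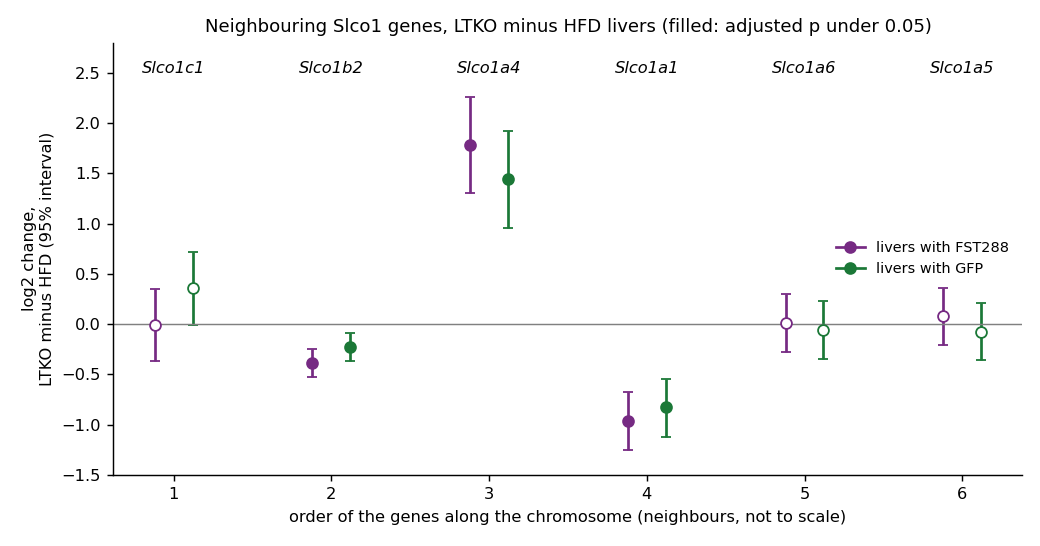
Log2 change between LTKO and HFD livers (LTKO minus HFD) of the 6 neighbouring Slco1 genes, placed by their order along the chromosome, with FST288 in purple and GFP in green; bars are 95% intervals and filled points have an adjusted p under 0.05. Slco1a4 lies above 0 and its neighbours Slco1b2 and Slco1a1 below it, while Slco1c1, Slco1a6 and Slco1a5 have open points.

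Because Slco1a1 and Slco1a4 are known for a sex difference, lists of other genes known for one in mouse liver were counted in these male livers. Of 13 measured male-predominant genes, 10 were lower and 0 higher in LTKO FST288 livers than in HFD FST288 livers, against 5.29% and 5.05% of all genes, with a list median of -1.42 against 0 for all genes. With GFP, 6 were lower and 1 higher, against 6.4% and 6.69% of all genes, with a median of -0.38 against 0.01. With FST288, 5 were lower and 0 higher when HFD FST288 arrays 2 and 3 were left out. Serpina1e, a male-predominant protease inhibitor, fell by a change of -1.81 with FST288 (adjusted p = 3.05e-06) and of -2.56 with GFP (adjusted p = 1.17e-07, limma), and C6, a complement component, by -1.91 with FST288 (adjusted p = 0.000108). Cyp4a12a, a male-predominant fatty acid hydroxylase, was the one that was higher with GFP, by 0.83 (adjusted p = 0.000467, limma). Of 13 measured female-predominant genes, 5 were higher and 0 lower with FST288, and 4 were higher and 0 lower with GFP, against the same shares of all genes. The list medians were only 0.24 with FST288 and 0.08 with GFP, and 9 and 8 of the 13 changes were positive. Several of the 13 lay below the array medians over named genes on every array. Among those called higher, Acot3, a peroxisomal thioesterase, rose by 3.35 and 2.76, and Cyp3a44 by 2.10 and 1.48, with FST288 and with GFP.

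Abcb11 encodes the bile salt export pump, the rate-limiting step of bile acid secretion, and is a known target of the bile acid receptor FXR, which is encoded by Nr1h4 and binds inverted repeats with a spacer of 1 base. Its promoter window is shown with such a repeat in capitals, over chr2:69342567-69342866 of the RefSeq assembly GRCm38.p6 on the minus strand, 5′ to 3′.
Abcb11: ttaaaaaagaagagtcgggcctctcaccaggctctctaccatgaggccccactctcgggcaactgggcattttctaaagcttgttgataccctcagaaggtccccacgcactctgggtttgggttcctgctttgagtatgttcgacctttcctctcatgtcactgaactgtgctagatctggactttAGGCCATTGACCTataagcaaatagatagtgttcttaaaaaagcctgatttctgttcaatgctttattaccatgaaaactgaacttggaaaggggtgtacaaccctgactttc
The search allowed up to 1 mismatch to AGGTCANTGACCT, which reads the same on both strands, and found AGGCCATTGACCT at bases 63 to 51 before the start. Of 32851 promoter windows of 300 bases, 27 held such a match, or 0.0822%, and among the 12 windows of the 9 members in the RefSeq table only those of Abcb11 and Slco1b2 did. A match is a description of letters, and binding was not measured here.

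The Abcb11 transcript had a level of 8.92 in both LTKO FST288 livers, 8.95 and 9.19 in LTKO GFP livers, 9.73, 9.82 and 9.86 in HFD FST288 livers, and 9.35, 9.29 and 9.51 in HFD GFP livers. The HFD FST288 arrays were the highest and did not overlap with any other group. Against HFD livers, Abcb11 fell in LTKO livers by a change of -0.88 ± 0.09 with FST288 (adjusted p = 2.43e-05, limma; 1.84-fold lower), called in 22 of 22 alternatives. With GFP the change was -0.31 ± 0.09 (adjusted p = 0.0387, limma; 1.24-fold lower), called in 11 of 22. That call did not hold when LTKO GFP array 1 was left out (-0.19, adjusted p = 0.316). Leaving out HFD FST288 array 2 or 3 ended it too (adjusted p = 0.0561 and 0.0582), as did HFD GFP array 1 or 3 (adjusted p = 0.0687 and 0.135).

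With the vector, Abcb11 changed by -0.15 in LTKO livers (adjusted p = 0.689) and rose in HFD livers by 0.42 ± 0.08 (95% interval 0.24 to 0.60; adjusted p = 0.0262, limma; 1.34-fold). The call in HFD livers held in 13 of 22 alternatives. It ended when HFD FST288 array 2 or 3 was left out (adjusted p = 0.128 and 0.15), or HFD GFP array 1 or 2 (adjusted p = 0.112 and 0.120), at changes of 0.37 to 0.41. HFD FST288 array 1, with acinar markers near the level of the GFP arrays, was itself above every HFD GFP array. With arrays 2 and 3 left out the change was 0.34 (adjusted p = 0.753), and with the acinar signal as a covariate it was 0.35 (adjusted p = 0.501, limma).

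Nr1h4, the gene of FXR, changed by 0.01 in LTKO livers and 0.26 in HFD livers with the vector (adjusted p of 0.992 and 0.214, limma). Between LTKO and HFD livers it changed by -0.19 with FST288 and 0.07 with GFP (adjusted p of 0.308 and 0.747). Nr0b2, which encodes the repressor SHP and is induced by FXR, rose by 0.85 in LTKO GFP livers against HFD GFP livers (adjusted p = 0.00988, limma). That call was lost without LTKO GFP replicate 2 (adjusted p = 0.0984). Its change was 0.48 with FST288 (adjusted p = 0.157), 0.30 with the vector in LTKO livers (adjusted p = 0.713) and 0.66 with the vector in HFD livers (adjusted p = 0.108), none past the threshold. Abcb11 and Nr0b2 are both known FXR targets. Their changes had opposite signs between LTKO and HFD livers with either vector, and with the vector in LTKO livers. Both were positive with the vector in HFD livers, and the part of FXR was not tested.

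Abcc2 encodes MRP2, the canalicular pump for bilirubin glucuronides and glutathione conjugates. Its level was 10.30 and 10.25 in LTKO FST288 livers, 10.23 and 10.27 in LTKO GFP livers, 10.30, 10.19 and 10.16 in HFD FST288 livers, and 10.30, 10.32 and 10.31 in HFD GFP livers. All 10 arrays lay within 10.16 and 10.32, and it passed the test in none of the comparisons. Its 4 group means spanned 0.09, against a median span of 0.3 over all genes and 0.7 over the members.

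Abcc3 encodes MRP3, a basolateral pump that returns bile acids and glucuronides to blood. Its level was 7.37 and 7.75 in LTKO FST288 livers, 7.57 and 7.65 in LTKO GFP livers, 6.25, 5.79 and 5.98 in HFD FST288 livers, and 6.87, 7.05 and 7 in HFD GFP livers. The 4 LTKO arrays were the highest, the HFD GFP arrays came next and the HFD FST288 arrays were the lowest, without overlap between these. In HFD livers the vector lowered Abcc3 by a change of -0.96 ± 0.13 (95% interval -1.24 to -0.69; adjusted p = 0.00254, limma; 1.95-fold lower). In LTKO livers the change was -0.05 ± 0.16 (95% interval -0.39 to 0.29; adjusted p = 0.951, limma).

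The HFD call held without any single array of the 10, with changes of -1.09 to -0.86. HFD FST288 array 1, with low acinar markers, was the highest of its group for Abcc3 and still below every HFD GFP array. With arrays 2 and 3 left out, the change was -0.72 (adjusted p = 0.321), and with the acinar signal as a covariate it was -0.72 (adjusted p = 0.154, limma), neither past the threshold. The same fits gave 6 and 37 calls over all genes in this comparison, against 221 with all arrays and no covariate. With arrays 2 and 3 left out, array 1 is the lone array of its group and is assumed to vary like the others.

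**Figure D5:**
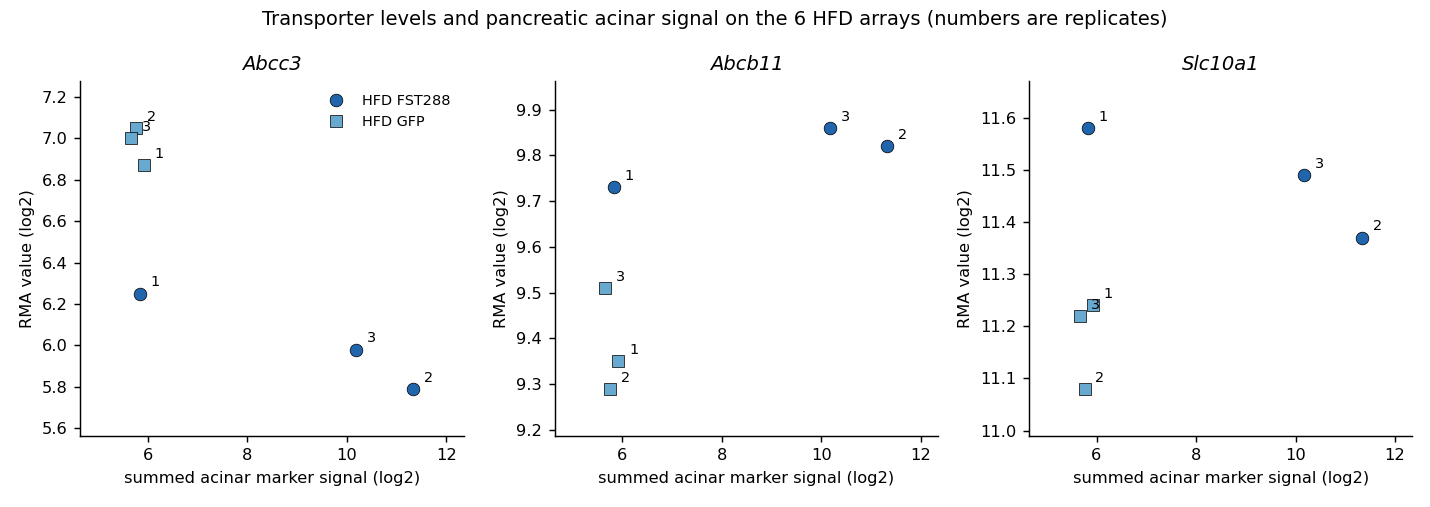
Log2 level of Abcc3, Abcb11 and Slc10a1 on the 6 HFD arrays against the summed log2 signal of the 7 measured acinar markers, with HFD FST288 and HFD GFP arrays as separate symbols. HFD FST288 array 1, at an acinar signal of 5.83, lies on the same side of the HFD GFP arrays as arrays 2 and 3 for all 3 genes.

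In LTKO livers against HFD livers, Abcc3 rose by 1.55 ± 0.14 with FST288 (adjusted p = 8.21e-06, limma; 2.93-fold) and by 0.64 ± 0.14 with GFP (adjusted p = 0.00846, limma; 1.56-fold). With FST288 the call held in 22 of 22 alternatives, and the change lay between 1.36 and 1.75 when single arrays were left out. With GFP it was lost only without LTKO GFP replicate 2 (0.60, adjusted p = 0.0639).

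Abcc4 encodes MRP4, a basolateral pump that cotransports bile acids with glutathione. Its level was 3.30 and 3.38 in LTKO FST288 livers, 3.36 and 3.45 in LTKO GFP livers, 3.12, 3.42 and 3.24 in HFD FST288 livers, and 3.31, 3.35 and 3.40 in HFD GFP livers. All arrays lay close to the array medians over named genes, where a fold is not an exact measure, and the groups compared overlapped. Its changes were -0.06 in LTKO livers and -0.09 in HFD livers with the vector, and 0.08 with FST288 and 0.05 with GFP between LTKO and HFD livers, with adjusted p between 0.837 and 0.937 in limma.

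Abcc3 and Abcc4 are known in mouse liver as targets of the oxidant sensor NRF2, encoded by Nfe2l2, and of the xenobiotic receptor CAR, encoded by Nr1i3. Of 12 measured NRF2-responsive genes other than members, 8 were higher and 0 lower in LTKO FST288 livers than in HFD FST288 livers, and 9 were higher and 0 lower in LTKO GFP livers than in HFD GFP livers. Of all genes, 5.05% were higher and 5.29% lower with FST288, and 6.69% higher and 6.4% lower with GFP. The list medians were 0.60 with FST288 and 0.62 with GFP, against 0 and 0.01 over all genes. Gclc, the catalytic subunit of glutathione synthesis, rose by 1.14 and 1.51, and Ephx1, an epoxide hydrolase, by 1.26 and 1.48, with FST288 and with GFP. Nr1i3 rose by 1.41 with FST288 (adjusted p = 2.06e-06) and by 1.31 with GFP (adjusted p = 4.47e-06, limma), and Nfe2l2 by 0.60 with GFP (adjusted p = 0.00317). With FST288, Nfe2l2 averaged 7.45 in LTKO and 7.23 in HFD livers. With the vector, 1 of the 12 fell in LTKO livers, Gclc by a change of -0.70 (adjusted p = 0.00534), and 2 fell in HFD livers, Gclc by -0.33 (adjusted p = 0.0438) and Gclm by -0.36 (adjusted p = 0.0237, limma). The share of all genes that fell was 0.0676% in LTKO livers and 0.419% in HFD livers. In LTKO livers the Gclc call held without each of the 10 arrays. In HFD livers the calls on Gclc and Gclm were lost without any one of the 6 HFD arrays, where the list count was 0, as it was without HFD FST288 arrays 2 and 3. The motif TGACNNNGC, a core of the sites that NRF2 binds, was searched on both strands and lay in 12.4% of all promoter windows. It was found once in the window of Abcc2 and once in each of the 2 windows of Abcc4. Abcc3 had no window to search, and neither Abcc2 nor Abcc4 was called in any comparison. The part of NRF2 or CAR in the Abcc3 changes was not tested.

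Abcg5 and Abcg8 are transcribed away from each other in RefSeq. The start of Abcg5 and the first start listed for Abcg8 lie 110 bases apart, so the promoter windows placed on them share 209 bases. The pair is known to be induced by the oxysterol receptor LXR. The window of Abcg5 is shown because it covers the stretch between both starts, over chr17:84682962-84683261 of GRCm38.p6 on the minus strand, 5′ to 3′, with GATAA, the core that GATA factors bind, in capitals on either strand (TTATC on the other).
Abcg5: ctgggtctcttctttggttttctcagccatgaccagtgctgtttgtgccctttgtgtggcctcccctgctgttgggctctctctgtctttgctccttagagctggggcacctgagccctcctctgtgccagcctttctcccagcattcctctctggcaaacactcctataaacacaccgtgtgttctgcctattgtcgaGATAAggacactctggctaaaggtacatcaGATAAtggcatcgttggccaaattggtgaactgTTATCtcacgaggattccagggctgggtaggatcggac
It held 3 matches, and the first of the windows listed for Abcg8, over chr17:84682871-84683170 on the plus strand, held the same 3 sites, which lie in the shared bases. GATAA lay in 25.4% of all promoter windows, and 3 or more of it in 308, or 0.938%. Among the other members Abcc2, Abcc4 and Slc10a1 had 1 match in a window.

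Abcg8 was called in 2 comparisons and Abcg5 in 0, and the difference between the partners was not tested. Their changes had the same sign in each comparison of the main fit. Those of Abcg5 with the vector in HFD livers (-0.02) and of Abcg8 between the FST288 groups (-0.03) were near 0 and changed sign in some alternatives. Abcg8 had a level of 7.39 and 7.28 in LTKO FST288 livers, 8.15 and 7.88 in LTKO GFP livers, 7.39, 7.24 and 7.45 in HFD FST288 livers, and 7.55, 7.58 and 7.66 in HFD GFP livers. The LTKO GFP arrays were above all others, and the FST288 arrays of both backgrounds were in the same range. The vector lowered Abcg8 in LTKO livers by a change of -0.68 ± 0.12 (95% interval -0.93 to -0.43; adjusted p = 0.0420, limma; 1.60-fold lower), and its change in HFD livers was -0.24 ± 0.10 (95% interval -0.44 to -0.03; adjusted p = 0.321, limma). Against HFD livers, Abcg8 changed in LTKO livers by -0.03 ± 0.11 with FST288 (adjusted p = 0.939) and rose by 0.42 ± 0.11 with GFP (adjusted p = 0.0187, limma; 1.34-fold).

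The vector's call on Abcg8 in LTKO livers held in 5 of 22 alternatives. It was lost without any one of the 6 HFD arrays (adjusted p between 0.0586 and 0.0812 at the same change of -0.68), without LTKO FST288 array 2 (-0.63, adjusted p = 0.144) and without LTKO GFP array 1 (-0.54, adjusted p = 0.154). The rise in LTKO GFP livers held in 18 of 22 and ended with LTKO GFP array 1 left out (0.28, adjusted p = 0.203), or HFD GFP array 1 or 2 (adjusted p = 0.0606 and 0.0513).

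Abcg5 had a level of 6.99 and 6.95 in LTKO FST288 livers, 7.57 and 7.36 in LTKO GFP livers, 7.37, 7.23 and 7.19 in HFD FST288 livers, and 7.22, 7.28 and 7.34 in HFD GFP livers. The LTKO FST288 arrays were below all others, and the 2 HFD groups overlapped. None of its changes passed the threshold. With the vector it changed by -0.49 ± 0.11 in LTKO livers (95% interval -0.73 to -0.26; adjusted p = 0.138) and by -0.02 ± 0.09 in HFD livers (adjusted p = 0.968, limma). Against HFD livers it changed by -0.30 ± 0.10 in LTKO livers with FST288 (adjusted p = 0.0911) and by 0.18 ± 0.10 with GFP (adjusted p = 0.293, limma). In LTKO livers the vector's change stayed between -0.60 and -0.39 and was called in 0 of 22 alternatives.

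Of 12 measured LXR-responsive genes other than members, the vector lowered 1 in LTKO livers, Scd1, a fatty acid desaturase, by a change of -0.55 (adjusted p = 0.0494, limma), a call lost without any 1 of 8 arrays (all but HFD FST288 array 2 and LTKO FST288 array 2). In HFD livers it lowered 2, Srebf1, a master regulator of lipid synthesis, by -1.17 (adjusted p = 0.00108) and Pltp, a phospholipid transfer protein, by -0.63 (adjusted p = 0.0368, limma). Of all genes, the vector lowered 0.0676% in LTKO livers and 0.419% in HFD livers. The Srebf1 call held without each single array but was lost without HFD FST288 arrays 2 and 3 (-1.08, adjusted p = 0.15) and with the acinar covariate (-1.05, adjusted p = 0.0700), where the list had 0 calls both times. That on Pltp was lost without HFD FST288 replicate 2 or 3 or HFD GFP replicate 1, 2 or 3. Between LTKO and HFD livers 3 were higher and 3 lower with FST288, and 1 was higher and 5 lower with GFP. The shares of all genes higher and lower were 5.05% and 5.29% with FST288, and 6.69% and 6.4% with GFP. With FST288 the number higher was 0 without LTKO FST288 replicate 2, and the number lower was 1 without LTKO FST288 replicate 1. Without HFD FST288 arrays 2 and 3, 0 were higher and 1 was lower with FST288. With GFP the 1 higher gene was lost without LTKO GFP replicate 1 or 2 or HFD GFP replicate 2. Scd1 fell by a change of -2.45 with FST288 and -1.95 with GFP, and Srebf1 by -1.72 with GFP.

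Whether the vector acted differently in LTKO and HFD livers was tested by the difference of the vector's changes, LTKO minus HFD. It was called for 0 of 10 members, against 0.216% of all genes, while 4 of 10 had an unadjusted p under 0.05, against 12.6% of all genes. Those were Abcc3 with 0.91 ± 0.20 (95% interval 0.47 to 1.35; adjusted p = 0.0961), Abcb11 with -0.57 ± 0.13 (-0.85 to -0.29; adjusted p = 0.101), Abcg5 with -0.48 ± 0.14 (adjusted p = 0.203) and Abcg8 with -0.44 ± 0.15 (adjusted p = 0.26, limma). The Abcc3 difference passed the threshold without HFD FST288 replicate 1 (1.03, adjusted p = 0.0415) and without LTKO FST288 replicate 1 (1.11, adjusted p = 0.0201). With 2 arrays in each LTKO group, calls in 1 background and not in the other are therefore not shown to differ.

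Other transport genes of the liver changed in both directions. Of 28 measured, 4 were higher and 9 lower in LTKO FST288 livers than in HFD FST288 livers, and 2 were higher and 8 lower in LTKO GFP livers than in HFD GFP livers, with medians of -0.14 and -0.03. The share higher with GFP was near that of all genes, 6.69%, while 6.4% of all genes were lower with GFP and 5.05% higher and 5.29% lower with FST288. With FST288 the number higher was 1 without LTKO FST288 replicate 2 or HFD FST288 replicate 3, and 2 without HFD FST288 replicate 1 or 2 or HFD GFP replicate 3. Without HFD FST288 arrays 2 and 3, 1 was higher and 3 were lower. With GFP the number higher was 1 without LTKO GFP replicate 2 or HFD GFP replicate 2. Abcb4, the canalicular phospholipid exporter that protects the duct from bile salts, rose by 0.62 with FST288 (adjusted p = 0.000359) and by 0.58 with GFP (adjusted p = 0.000581, limma), opposite to Abcb11. Slco2b1, a further OATP carrier, fell by a change of -0.92 with FST288 and -0.97 with GFP, and Slc22a7, the organic anion carrier OAT2, by -2.63 with FST288 (adjusted p = 3.53e-05). The Slco2b1 call with GFP was lost when the mean of a gene's clusters was used in place of the brightest. The vector's calls over all genes were 0.167% in LTKO livers and 0.996% in HFD livers. With the vector, 0 of 28 were called in LTKO livers by limma (5 at an unadjusted p under 0.05, and 1 lower without LTKO FST288 replicate 1). In HFD livers 1 was (2 without LTKO FST288 replicate 1 or 2), Atp8b1, a phospholipid flippase of the canalicular membrane, which fell by a change of -0.70 (adjusted p = 0.00373, limma). That call was lost without HFD FST288 arrays 2 and 3 (-0.72, adjusted p = 0.274) and with the acinar covariate (-0.73, adjusted p = 0.0916), where 0 of 28 were called.

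Among genes of bile acid synthesis, Cyp8b1 and Hsd3b7 were higher in LTKO than in HFD livers with both vectors. Cyp8b1, the sterol hydroxylase that sets the share of cholic acid, rose by 1.23 with FST288 (adjusted p = 1.16e-06) and by 0.76 with GFP (adjusted p = 7.79e-05, limma). Hsd3b7, an early enzyme common to both synthesis routes, rose by 1.09 with FST288 and 0.75 with GFP. Cyp7a1, the rate-limiting enzyme of the classical route, fell by a change of -0.71 with GFP (adjusted p = 0.0147), a call that ended with LTKO GFP array 2 left out (-0.31, adjusted p = 0.177) or HFD GFP array 1. Its change with FST288 was 0.38 (adjusted p = 0.231, limma). Of 17 measured synthesis genes, 4 were higher and 4 lower with FST288, and 5 were higher and 2 lower with GFP. The shares of all genes higher and lower were 5.05% and 5.29% with FST288, and 6.69% and 6.4% with GFP. The number lower with GFP was 1 without LTKO GFP replicate 2 or HFD GFP replicate 1. Without HFD FST288 arrays 2 and 3, 3 were higher and 2 lower with FST288.

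With the vector, 0 of the 17 were called in LTKO livers by limma (5 at an unadjusted p under 0.05, and 1 higher without LTKO GFP replicate 1), where Cyp7a1 changed by 0.54 (adjusted p = 0.357). In HFD livers 1 was higher (2 without HFD FST288 replicate 1) and 2 lower, against 0.577% and 0.419% of all genes. Cyp2c70, which makes the muricholic acids of mice, rose by 0.79 (adjusted p = 0.000973), and Hsd3b7 and Cyp8b1 fell by changes of -0.57 and -0.54 (adjusted p of 0.00266 and 0.00602, limma). Cyp7a1 changed by -0.55 (adjusted p = 0.137). These 3 calls held without each single array, and without HFD FST288 arrays 2 and 3 the list had 0 calls.

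Of 19 measured regulators of these genes, 3 were higher and 3 lower in LTKO FST288 livers than in HFD FST288 livers, and 7 were higher and 3 lower in LTKO GFP livers than in HFD GFP livers. Over all genes, 5.05% were higher and 5.29% lower with FST288, and 6.69% higher and 6.4% lower with GFP. Hnf4a, a hepatocyte nuclear receptor needed for many carriers, rose by 0.71 with GFP (adjusted p = 3.71e-05), and Cebpb, an acute-phase factor, fell by changes of -0.69 with FST288 and -0.80 with GFP. With FST288, Hnf4a averaged 9.55 in LTKO and 9.32 in HFD livers. Onecut1, a hepatocyte and bile duct transcription factor, rose by 1.54 with the vector in HFD livers (adjusted p = 0.00469, limma). It was the single regulator called there, against 0.577% of all genes called higher. It was lower by a change of -2.13 in LTKO FST288 livers than in HFD FST288 livers (adjusted p = 7.02e-05, limma). With the vector in LTKO livers, 0 of 19 were called by limma (4 at an unadjusted p under 0.05). The number higher was 1 with FST288 without LTKO FST288 replicate 2 or HFD FST288 replicate 3, and it was 3 with GFP without LTKO GFP replicate 2 and 4 without HFD GFP replicate 3. Without HFD FST288 arrays 2 and 3, 1 was higher and 3 were lower with FST288, and 0 of 19 were called with the vector in HFD livers.

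Among the members, the patterns over the 10 arrays were compared by the root mean square difference of centred log2 levels, in which a smaller value means more alike. The 4 smallest of all pairs were Abcc2 with Abcc4 (0.108), both nearly flat, Abcb11 with Slc10a1 (0.152), Slc10a1 with Slco1b2 (0.160) and Abcg5 with Abcg8 (0.175). Slco1a1 and Slco1a4, neighbours on the chromosome, were the farthest apart (1.288). Over the 5799 genes with a mean level of at least 5, those nearest to Abcb11 were D230025D16Rik (0.069) and Mettl7a1 (0.075), and those nearest to Slco1a1 were Hsd3b3 (0.099) and Tmem19 (0.101). Nearest to Abcc3 were Rdh16f2 (0.13) and Tlr5 (0.17), and nearest to Slco1a4 were Mmp14 (0.241) and Slc4a4 (0.273). The arrays of a pair are the same, so shared features of an array enter each value.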

How the data were processed

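RNA of 10 livers was measured on 1 Affymetrix whole-transcript array each. The deposited values are log2 levels; the authors used Affymetrix Expression Console and RMA, per the submitters' processing notes, and the version of the program is not given in the sources used here. The base of the logarithm was read from RMA and from the range of 0.64 to 13.21. Of 41345 clusters, 23521 were listed with 1 symbol, 1814 with several (left out) and 16010 with none, and the brightest cluster stood for a gene with several, which left 22180 genes. Array medians over all clusters lay between 2.71 and 2.75. An array has no counting depth; precision is limited by how many arrays there are.

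Group means were estimated from the 10 arrays together by limma 3.58.1, run in R 4.3.3 (lmFit, eBayes with an intensity trend, 6 residual and 7.155 prior degrees of freedom). Tests were two-sided, with p adjusted by Benjamini-Hochberg over the 22180 genes of a contrast. Since no label states that every array is its own animal, p-values measure only the spread of these samples, which may be technical. A list's level per array is the log2 of its markers' summed linear signal.

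The members and lists were chosen with earlier results of these data known, and no list was tested as a set. RMA corrects background, sets all arrays to 1 distribution and summarises probes, which understates changes of dim genes. Named beyond the members were at most the 4 called genes with the smallest p of a list and contrast, the fixed genes Cyp7a1, Nr0b2, Nr1h4, Abcb4 and Fst, marker and targeted genes, chromosomal neighbours, and the 2 genes nearest in pattern. Gene order and 300-base promoter windows came from RefSeq (GRCm38.p6), with 12 windows for 9 of 10 members (not Abcc3). Beside the leave-one-out fits, the alternatives changed the block, normalization, moderation, weights, filter and clusters used (20 in all), and 2 more were chosen after seeing the data (the median acinar level as a covariate, and HFD FST288 arrays 2 and 3 left out).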

Additional observations from a re-analysis of the deposited data

Results flagged for a closer look

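The vector's change differed between the backgrounds, by the test of the difference itself (LTKO minus HFD, limma), for 2 genes of the lists counted beside the transporters. Cyp4a12a, a male-predominant fatty acid hydroxylase, had a difference of -1.27 ± 0.17 (SE; adjusted p = 0.0112), with means of 7 in LTKO FST288 livers, 6.95 in LTKO GFP livers, 7.45 in HFD FST288 livers and 6.12 in HFD GFP livers. Oat, a pericentral aminotransferase, had a difference of 0.89 ± 0.12 (adjusted p = 0.00924), with means of 11.17 in LTKO FST288 livers, 11.03 in LTKO GFP livers, 9.47 in HFD FST288 livers and 10.21 in HFD GFP livers. Both calls held in 18 of 22 alternatives, among them the fits without each single array. They were lost with no intensity trend, with all clusters tested, and with the acinar covariate (-1.39, adjusted p = 0.0534, for Cyp4a12a and 0.84, adjusted p = 0.0853, for Oat). They were lost as well without HFD FST288 arrays 2 and 3 (-1.40, adjusted p = 0.156, and 0.84, adjusted p = 0.242). Over all genes, the calls on this difference numbered 48 with all arrays, 266 without LTKO FST288 replicate 1, 85 without HFD FST288 replicate 1, 11 to 15 without HFD FST288 replicate 2 or 3 or any HFD GFP array, 30 without LTKO GFP replicate 2, 3 with no intensity trend, 6 with all clusters, and 1 with the acinar covariate or without HFD FST288 arrays 2 and 3. Groups of 2 and 3 arrays are too small for the outlier test, so no single array was set apart by it.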

How the results depend on the processing

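The number of members called was recomputed under 22 alternatives. With the vector in LTKO livers it was 1, and 0 with the replicate block, quantile normalization, centred arrays, the groups' own arrays alone, no intensity trend, array weights, all clusters tested, the acinar covariate, and HFD FST288 arrays 2 and 3 left out. It was 0 to 1 with single arrays left out. With the vector in HFD livers it was 2, and 1 with quantile normalization, no trend or all clusters, 0 with the acinar covariate or without arrays 2 and 3, and 1 to 3 with single arrays left out. It was 3 with the HFD arrays alone. Between LTKO and HFD livers it was 6 with FST288, and 6 with each single array left out. With GFP it was 7, 4 with all clusters, and 4 to 7 with single arrays left out. For the difference of the vector's changes it was 0, and 0 to 1 with single arrays left out.

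Same-numbered arrays did not deviate together over all genes (correlations of -0.068 to 0.008), and the main fit did not pair them. In each LTKO group the deviations of 2 arrays mirror each other, so the 2 LTKO correlations are the same value. A pairing is not excluded by these values. The replicate block left 2 members called with the vector in HFD livers and 5 between LTKO GFP and HFD GFP livers. With the acinar covariate and without arrays 2 and 3, calls over all genes were 23 and 16 with the vector in LTKO livers, against 37 with all arrays. They were 1063 and 939 between the FST288 groups, against 2293. Of 1100 member values, 26 changed sign, all uncalled and at most 0.22 in size, and 0 called values reversed. Over all genes, leaving out single arrays gave 80 to 307 calls with the vector in HFD livers and 1870 to 3037 between the GFP groups. Listed genes had 162 called changes; of the 116 with the smallest p or named by rule, 68 stayed called in every alternative, 82 with every single array left out, and 0 reversed. The causes of these shifts were not tested.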

Other observations

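Markers of the zones of the liver lobule also differed between LTKO and HFD livers. For comparison, 5.05% of all genes were higher and 5.29% lower with FST288, and 6.69% were higher and 6.4% lower with GFP. Of 6 pericentral markers, 3 were higher and 0 lower with FST288, and 3 were higher and 1 lower with GFP, where Oat rose by 0.82 (adjusted p = 1.79e-05) and Glul, glutamine synthetase, fell by a change of -0.27 (adjusted p = 0.0149, limma; lost without LTKO GFP replicate 1 or HFD GFP replicate 3). Of 4 measured periportal markers, 2 were lower with FST288 and 3 with GFP, where Ass1 of the urea cycle fell by a change of -0.99 (adjusted p = 0.000894) and Cyp2f2, a monooxygenase, by -0.83 (adjusted p = 4.15e-05, limma). With the vector in HFD livers 2 pericentral markers were lower, against 0.419% of all genes. They were Oat, with a change of -0.75, and Glul, with -0.38, the second of these lost without HFD FST288 replicate 3 or HFD GFP replicate 3. Without HFD FST288 arrays 2 and 3 neither was called (Oat -0.70, adjusted p = 0.0775, and Glul -0.40, adjusted p = 0.344), and with the acinar covariate Oat alone was. The part of these shifts in the transporter changes was not tested. Markers of cholangiocytes, which also carry bile acid transporters, were called in 0 of 7 cases in each of the 5 contrasts by limma. At an unadjusted p under 0.05 were 0 to 1 of them. Without HFD FST288 replicate 1, 2 were called lower in LTKO FST288 than in HFD FST288 livers. The 7 markers had a median level between 2.55 and 3.07 on every array, below the array medians of 3.10 to 3.17 over named genes. A change in most of them would thus be hard to see, and the missing calls do not show that cholangiocytes were unchanged. The summed level, which rests mostly on the brighter markers, was 7.15 to 7.18 in LTKO FST288 and 7.32 to 7.44 in LTKO GFP livers. It was 7.29 to 7.39 in HFD FST288 and 7.34 to 7.37 in HFD GFP livers.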
